A study of Bos grunniens with 3 samples.

Results

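Cells rich in transcripts of the replication machinery were gated in 3 single-cell libraries of white yak hair follicle and are called S phase MCM high cells. S phase is the part of the cell cycle in which DNA is copied, and it was read here from transcripts alone. A member had at least 200 detected genes and at least 6 UMIs (unique molecular identifiers, each one counted transcript) summed over *MCM2*, *MCM3*, *MCM5*, *MCM6* and *UHRF1*. It also had under 5 UMIs of *TOP2A*, *CENPF* and *UBE2C*, which mark late G2 and mitosis, and under 4 UMIs of *DCN*, *ICA1*, *FABP7* and *DPP4*, the genes of another cell group of these libraries called the DCN group here. There were 228 members among 11987 kept anagen cells, 64 among 12062 catagen cells and 202 among 14502 telogen cells, which gave 494 of 38551 cells in all. Members were thus chosen by the UMI counts of these 12 genes, whose levels are a description, and the results below concern the other genes.

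Before a cell divides, the MCM2 to MCM7 proteins are loaded onto DNA at replication origins and then act as the helicase that opens the double strand. *UHRF1* binds newly copied DNA whose methylation is incomplete and brings the methyltransferase *DNMT1* to it. Many of these genes are transcribed in a wave as cells pass from G1 into S phase. In skin, dividing keratinocytes lie in the basal layer, in the outer root sheath and in the matrix of the hair bulb, and cells leave the cycle as they move upward and make differentiation keratins. The hair follicle grows in anagen, regresses in catagen and rests in telogen.

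The libraries came from scapular skin of healthy Tianzhu white yaks about 2 years old, from which single follicles were pulled after digestion with dispase and dissociated with trypsin, and were made with 10x Genomics 3′ chemistry. No genotype or treatment was given, and the animals were not tied to libraries. Each stage had 1 library, so stage, animal, library and processing run cannot be told apart, and no test between stages was possible. The contrasts between cells of the same library are given library by library, without a test. Intervals are 95% intervals that cover counting error only. The libraries held 82862998 UMIs (anagen), 51647865 (catagen) and 103511775 (telogen). The protocol text of the catagen library named anagen, while its title and stage label named catagen, and it was used as catagen. The anagen and catagen libraries shared 43 cell barcodes, anagen and telogen 40, and catagen and telogen 49.

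Members made up 1.90% of kept anagen cells (Clopper-Pearson interval 1.67 to 2.16%), 0.531% of catagen cells (0.409 to 0.677%) and 1.39% of telogen cells (1.21 to 1.60%). The catagen share lay below the other 2, and these intervals did not overlap. Because the gate counts UMIs, it favours deep cells. The median was 9277.5, 7144.5 and 11854.5 UMIs in anagen, catagen and telogen members, against 5256, 3350 and 5583.5 in all kept cells. After thinning every cell to 3000 UMIs and lowering the limits, the shares were 2.79% in anagen (2.47 to 3.13%), 1.08% in catagen (0.844 to 1.35%) and 1.40% in telogen (1.18 to 1.65%). The order of stages was the same, but the catagen and telogen intervals then overlapped. Thinning left out 2095, 5378 and 4511 cells that had fewer UMIs.

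Of the cells with 6 or more UMIs of the replication genes, 686 in anagen, 224 in catagen and 409 in telogen, many also carried the other gate genes. In anagen 124 were set aside for the mitotic genes alone, 167 for the DCN group genes alone and 167 for both. In catagen these numbers were 28, 76 and 56, and in telogen 143, 25 and 39. Such anagen and catagen cells were thus most often lost to the DCN group limit, and telogen cells to the mitotic limit.

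Among the gate genes, *UHRF1* (ENSBGRG00000013371) was at 318 CPM (UMIs of the gene per 1000000 UMIs, summed over the members of a library) in anagen, 356 CPM in catagen and 118 CPM in telogen. *MCM2* was at 249, 267 and 180 CPM, *MCM3* at 213, 234 and 162 CPM, *MCM5* at 204, 261 and 154 CPM, and *MCM6* at 32.2, 64.3 and 37.1 CPM. UMIs of 4 of the 5 genes were held by 128 anagen, 29 catagen and 98 telogen members, and UMIs of all 5 by 30, 14 and 38. The median member had 9, 8 and 8 UMIs of them, and 42, 14 and 40 members had exactly 6.

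Replication genes that the gate did not use followed the same count. The summed level of 5 lists of replication genes, 104 genes with the gate genes left out, was taken in cells within the central depth range of the members. With 0 UMIs of the gate genes it was 1568 CPM in anagen, 1559 CPM in catagen and 1276 CPM in telogen. Just outside the gate, at 5 UMIs, it was 4597 CPM (45 cells), 5206 CPM (17 cells) and 4487 CPM (40 cells). Just inside, at 6 UMIs, it was 5432 CPM (36 cells), 7551 CPM (13 cells) and 4573 CPM (33 cells), and at 10 or more UMIs it reached 7416, 10838 and 6584 CPM. The intervals at 5 and 6 UMIs overlapped in telogen (4294 to 4686 and 4372 to 4780 CPM). They did not in anagen (4376 to 4826 and 5170 to 5704 CPM) or in catagen (4798 to 5640 and 7030 to 8101 CPM). Cells at 5 UMIs were above cells with 0 UMIs in each library.

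**Figure D1:**
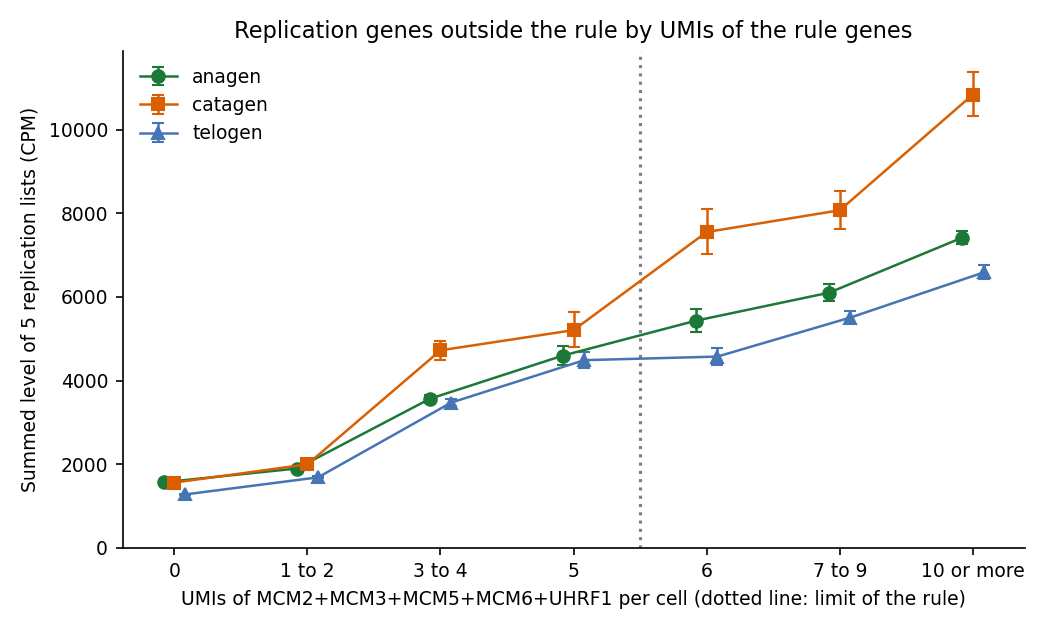
Summed level of 104 replication genes outside the gate (CPM, vertical axis) against the UMIs of the 5 gate genes per cell (horizontal axis), in anagen, catagen and telogen cells of the members' depth range. Bars are 95% Poisson intervals and the dotted line is the limit of 6 UMIs, and in each library the level at 10 or more UMIs, 7416, 10838 and 6584 CPM, is the highest of its line.

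The members were next compared with the cells of the same library that passed none of the 3 gates, 9895 in anagen, 11247 in catagen and 13316 in telogen. These comparison cells were weighted to the depth of the members. A gene was counted as higher or lower where the log2 ratio of CPM, with 1 CPM added, passed 2-fold in all 3 libraries. Of 4245 genes tested, 238 (5.61%) were higher and 72 (1.7%) were lower in members, and the median log2 ratio of all of them was 0.18 in anagen, 0.19 in catagen and 0.15 in telogen. Ratios are to be read against that shift. With 10 CPM added the counts were 122 and 39, and with a minimum of 50 CPM they were 69 and 29.

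Of 81 tested genes of the 5 replication lists, 65 were higher and none was lower, against 5.61% of all genes. This count is partly set by the filter, since 44 of the 81 reached the minimum of 10 CPM in the members only, where they are high.

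Among the genes that load and drive the helicase, 11 of 14 were higher, with median log2 ratios of 2.45, 2.73 and 2.34 in anagen, catagen and telogen, and 9 of the 14 passed the filter through the members only. *MCM7*, the helicase subunit that the gate did not use, was at 237 CPM in anagen members against 44.7 CPM in comparison cells, at 208 against 34.0 CPM in catagen and at 180 against 38.4 CPM in telogen. *CDT1*, which loads the helicase, was at 130, 121 and 83.9 CPM against 12.9, 8.48 and 9.52 CPM. Its inhibitor geminin, *GMNN*, was at 152, 220 and 158 CPM against 24.2, 29.2 and 27.6 CPM, so the loader and its inhibitor were both high. *GINS2*, part of the active helicase, was at 73.8, 87.6 and 78.7 CPM against 4.55, 3.19 and 5.39 CPM. *MCMBP*, *ORC3* and *ORC4* did not pass 2-fold in all 3 libraries.

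Of the polymerase, primase, clamp and ligation genes, 16 of 19 were higher (10 through the members only), with medians of 2.13, 2.42 and 2.09. Claspin (*CLSPN*, ENSBGRG00000010482), which ties the fork to the checkpoint kinase, had the largest ratio of the list. It was at 126, 134 and 85.7 CPM in members and at 5.92, 3.13 and 2.81 CPM in comparison cells. *PCNA*, the sliding clamp of the polymerases, was at 60.1 CPM (interval 50.6 to 70.9) in anagen members, 134 CPM (105 to 170) in catagen and 90.2 CPM (79.6 to 102) in telogen, against 9.08, 15.9 and 9.94 CPM. *LIG1*, which seals Okazaki fragments, was at 128, 125 and 74.6 CPM against 32.1, 27.8 and 23.5 CPM.

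Of the genes for nucleotide supply 9 of 14 were higher (6 through the members only), with medians of 1.44, 2.28 and 1.21. *RRM2* (ENSBGRG00000010858), the S phase subunit of ribonucleotide reductase, had, of all tested genes, the highest ratio when each gene was ranked by its lowest library. Its level was 79.4 CPM in anagen members (interval 68.4 to 91.7), 117 CPM in catagen (89.2 to 150) and 80.1 CPM in telogen (70.1 to 91.2), against 3.21, 1.41 and 1.54 CPM in comparison cells. It was detected in 90 of 228, 33 of 64 and 108 of 202 members, so its absence from a single cell says little at this depth. Thymidine kinase *TK1* was at 145, 115 and 130 CPM against 13.4, 6.91 and 18.1 CPM. The genes that did not pass were *IMPDH2*, *GART*, *NME1*, *CAD* and *UMPS*.

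**Figure D2:**
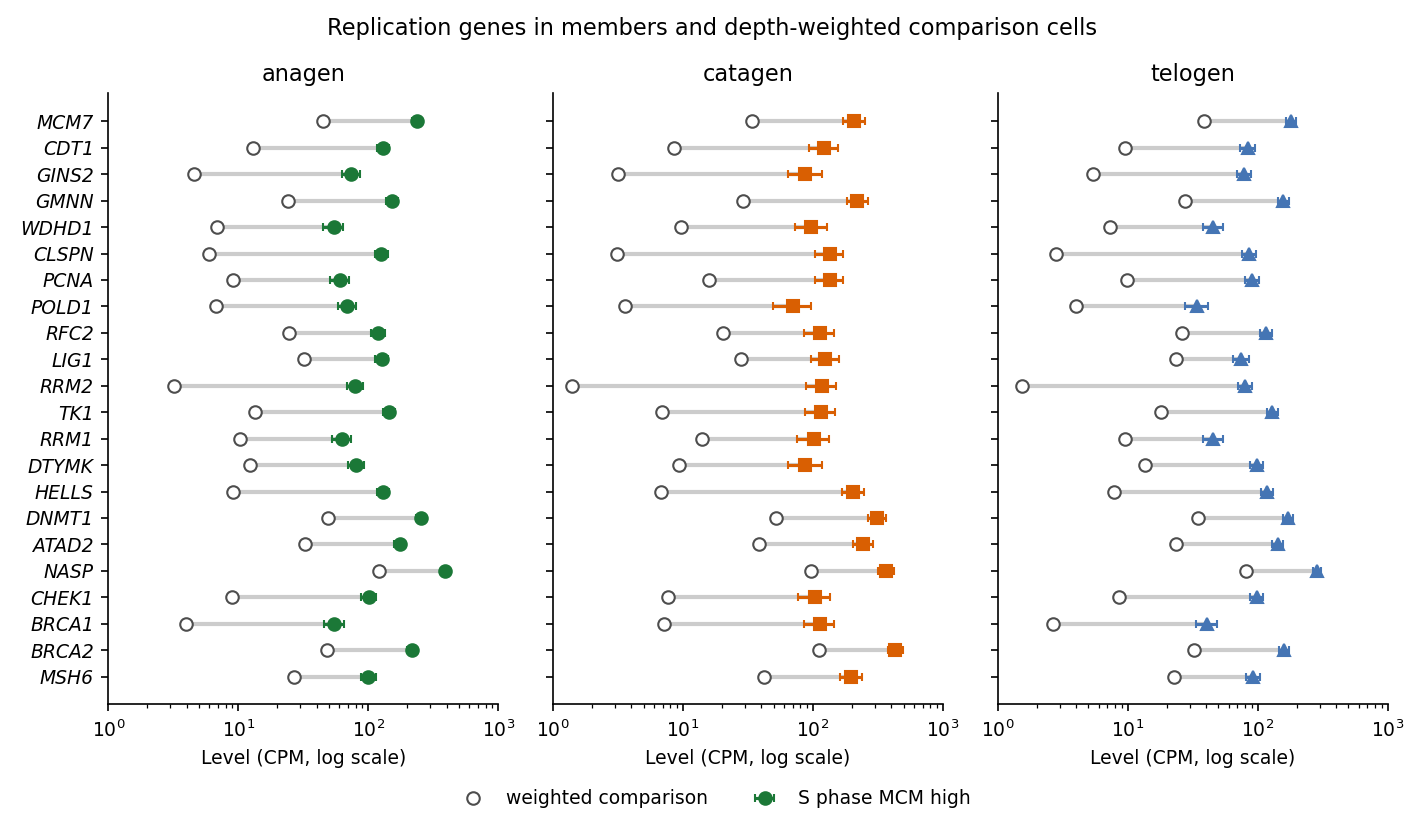
Levels of 22 replication genes outside the gate (CPM, log axis) in members (filled symbols with 95% Poisson intervals) and in depth-weighted comparison cells (open circles), in a panel per library. Every filled symbol lies to the right of its open circle, for example *RRM2* at 79.4 against 3.21 CPM in anagen.

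Chromatin assembly and DNA methylation genes were higher in 14 of 18 cases (8 through the members only), with medians of 1.95, 2.44 and 2.12. *HELLS*, a chromatin remodeler needed for DNA methylation, was at 130, 204 and 118 CPM in members against 9.04, 6.72 and 7.87 CPM. *DNMT1*, the partner of *UHRF1*, was at 252, 314 and 172 CPM against 48.6, 52.1 and 35.0 CPM. The histone chaperone *NASP* and the histone mRNA binding protein *SLBP* were also higher. *NASP* was at 390, 364 and 285 CPM against 121, 96.5 and 81.9 CPM, and *SLBP* at 181, 197 and 155 CPM against 42.7, 35.6 and 35.3 CPM.

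Repair and fork protection genes were higher in 15 of 16 cases (11 through the members only), with medians of 2.23, 2.33 and 2.19. The checkpoint kinase *CHEK1* was at 101, 103 and 98.5 CPM against 8.95, 7.71 and 8.59 CPM, nearly the same level in the members of each library. *BRCA1* was at 54.5, 113 and 40.6 CPM against 3.99, 7.17 and 2.68 CPM, and its partner *BARD1* at 39.1, 52.6 and 32.6 CPM against 2.38, 2.76 and 1.76 CPM. *ATR*, the kinase upstream of *CHEK1*, did not pass in telogen, where its log2 ratio was 0.93.

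The genes that control entry into S phase were mixed, with 3 of 9 higher (3 of the 9 passed the filter through the members only) and medians of 0.44, 0.91 and 0.62. Cyclin E2 (*CCNE2*) was at 18.5, 38.9 and 15.6 CPM in members against 1.05, 1.34 and 0.764 CPM. The pocket proteins *RB1* and *RBL1* were higher, *RBL1* with log2 ratios of 2.79, 2.76 and 2.23. *CCND1*, the cyclin of early G1, was at 71.3, 123 and 61.7 CPM against 62.3, 148 and 65.3 CPM and differed by less than 2-fold in each library, as did *MYC*.

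Outside the lists of replication genes, the 15 genes ranked highest in that way were led by *SMC2*, a condensin subunit that compacts chromosomes, at 267 CPM in anagen members (622 UMIs in 181 cells), 395 CPM in catagen (203 UMIs in 51 cells) and 222 CPM in telogen (641 UMIs in 172 cells). Comparison cells had 16.8, 22.9 and 14.3 CPM of it. The kinetochore gene *SPC24* and the centromere gene *CENPM* were in the same group. So were *ATAD5*, which unloads *PCNA*, the condensin partner *SMC4*, the kinase *VRK1*, the nuclear lamina protein gene *TMPO*, the heterochromatin protein gene *CBX5* and *TCF19*. *DGCR8*, the partner of DROSHA in microRNA processing, was at 604, 664 and 535 CPM against 185, 126 and 179 CPM. *SIVA1*, *CCDC167* and *BRI3BP* were also among them.

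Of 14 tested genes of G2 and mitosis, a list of which the gate had capped 3 genes, 11 were higher than in comparison cells, with medians of 2.16, 2.30 and 2.51. The filter largely fixes this count, since 10 of the 14 passed through the members only, and with a minimum of 50 CPM 2 were higher. *SMC2* is on this list. *CKAP2*, a spindle protein, was at 43.8, 81.8 and 70.8 CPM against 6.98, 6.26 and 6.43 CPM. *CDC20*, the activator of the anaphase-promoting complex, stayed at 6.01, 5.84 and 5.55 CPM, from 14, 3 and 16 UMIs.

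The members were also set against mitotic cells, 789 in anagen, 287 in catagen and 721 in telogen with 5 or more UMIs of the mitotic gate genes, without weighting for depth. The mitotic and DCN groups shared no cell, so a cell over both limits was counted in a single group. The mitotic group had no upper limit of replication gate UMIs. In anagen 124 of its cells, in catagen 28 and in telogen 143 also met the replication gate limit that defines members. The contrast is thus with a mixed group, and levels without these cells were not tested. Of 4280 genes tested, 18 (0.421%) were higher in members and 88 (2.06%) were lower. The first number ranged from 4, with 10 CPM added or a minimum of 50 CPM, to 28, with 10 or more gate UMIs, and the second was 41 with a minimum of 50 CPM. Of the 88, 26 were on the list of 29 tested G2 and mitosis genes, whose medians were -2.43, -3.01 and -2.37, and which are close to what the gate used in this contrast. *CDC20* was at 146, 158 and 144 CPM in mitotic cells. *PIMREG*, a mitotic gene, had 1 UMI in anagen members, 0 in catagen and 1 in telogen.

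Of the 18 genes higher in members than in mitotic cells, 11 were on the replication lists. *HELLS* was at 130, 204 and 118 CPM against 38.7, 50.1 and 39.0 CPM in mitotic cells, *CDT1* against 49.0, 23.8 and 30.2 CPM and *MSH6*, a mismatch repair gene, at 197 and 92.3 CPM against 41.0 and 32.9 CPM in catagen and telogen. *CCNE2*, *ORC1*, *TIMELESS*, *POLD2*, *RFC2*, *CHAF1B*, *CDCA7*, *DTL*, *DDX11* and the uracil glycosylase *UNG* were among them. Of the 83 tested genes of the 5 replication lists, 11 passed 2-fold upward and 2 downward. The filter partly sets this count, since some of these genes reached the minimum of 10 CPM through one group only. They were 2 of 14 helicase, 5 of 19 polymerase, 1 of 14 nucleotide supply, 4 of 18 chromatin and 5 of 18 repair genes. The helicase list had medians of 0.50, 1.02 and 0.69 and the polymerase list of 0.71, 0.95 and 0.72, against -0.06, -0.10 and 0.02 for all genes tested. The 2 lower ones were the chromatin proteins *HMGB2* and *HMGN2*. *CCL27*, a skin chemokine, was higher as well, although 91.7% of its catagen UMIs lay in 1 member.

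Of 12 tested genes of ribosome assembly and growth, 3 were higher than in comparison cells, against 5.61% of all genes, and 9 did not pass. The 3 were *DKC1* and *NOP56*, which modify ribosomal RNA, and the tubulin gene *TUBA1B*. The medians of the list were 0.82, 1.26 and 0.82, against 0.18, 0.19 and 0.15 for all genes. Against mitotic cells the medians of this list were 0.05, -0.07 and 0.19 and none passed.

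Of the 72 genes lower in members than in comparison cells, 12 were on the list of suprabasal epidermis. All 12 tested suprabasal genes were lower, with medians of -2.25, -2.97 and -2.29. *KRT1*, the first keratin made on leaving the basal layer, was at 1195, 504 and 1806 CPM in members against 7291, 6992 and 9007 CPM in comparison cells. Its partner *KRT10* was at 1075, 442 and 1569 CPM against 5799, 7811 and 6866 CPM, and the protease inhibitor gene *SPINK5* at 273, 60.4 and 204 CPM against 1207, 2440 and 1472 CPM. *KRT1* was detected in 151 of 228, 27 of 64 and 154 of 202 members, and 1 member held 23.7%, 56.8% and 11.1% of its UMIs. Whether low counts came from RNA free in the droplets was not tested.

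No member was among the 10% of cells with the highest summed share of suprabasal transcripts, 0 of 228, 0 of 64 and 0 of 202, which allows shares of up to 1.60%, 5.60% and 1.81%. Of weighted comparison cells 20.7%, 22.3% and 20.4% were in that range. The low share was not particular to members, since mitotic cells were at 1.01%, 1.05% and 0.971% and DCN group cells at 1.02%, 0.647% and 2.28%. Against mitotic cells 0 of 11 suprabasal genes were lower, with medians of -0.39, -0.60 and -0.45. *FABP5*, a fatty acid binding protein of differentiating keratinocytes and the desmosomal cadherin *DSG1* were lower by 2-fold or more in all 3 libraries, as were *SBSN* and *KRTDAP*. The histone gene *H2AJ* just missed the limit in anagen, where it was at 94.4 CPM against 190 CPM, and *EXPH5* missed it in telogen. *F3*, the tissue factor gene, was at 1360, 345 and 612 CPM against 2754, 1820 and 1192 CPM, which is under 2-fold in telogen only.

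Of 12 tested growth factor ligands and receptors of the follicle, 1 was higher and 2 were lower, against 5.61% and 1.7% of all genes. *JAG2*, a Notch ligand, was at 214, 226 and 132 CPM in members against 94.6, 81.1 and 48.5 CPM. The lower ones, *AREG* and *BTC*, are both ligands of the EGF receptor. *AREG* was at 293 CPM in anagen members, 11.7 CPM in catagen and 63.5 CPM in telogen, against 999, 486 and 253 CPM. The receptors *FGFR2*, *FGFR3*, *IGF1R* and *TGFBR2* did not pass. Of 17 early response and stress genes none passed in either direction, with medians of -0.28, -0.58 and -0.37. The companion layer and upper follicle list had 2 of 5 lower (*KRT75* and *KRT79*) and the sebaceous list 2 of 5 lower (*FABP5* and *DGAT2*), against 1.7% of all genes.

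**Figure D3:**
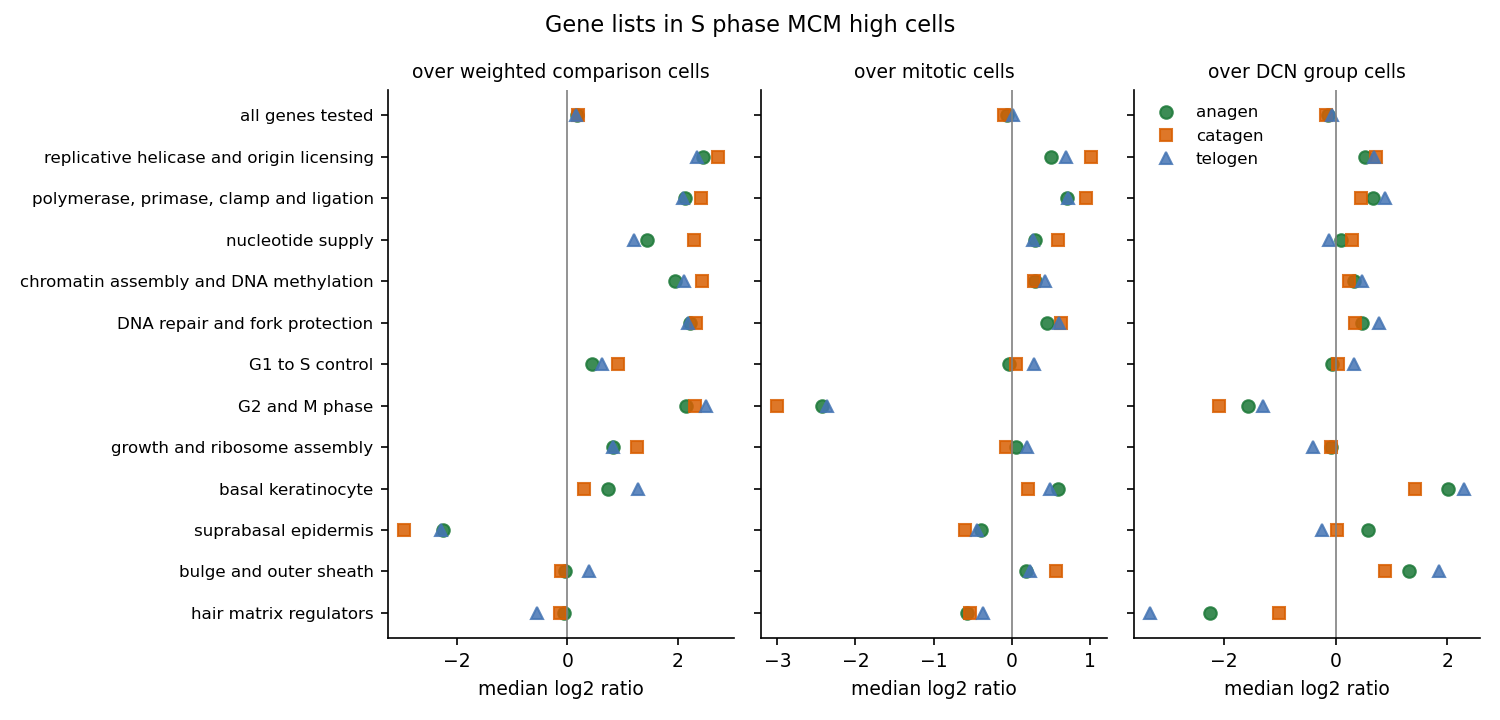
Median log2 ratio (horizontal axis) of the tested genes of 12 lists and of all tested genes in members over weighted comparison cells, mitotic cells and DCN group cells, with a symbol for each library. The 5 replication lists lie between 1.21 and 2.73 in the left panel and between -0.11 and 1.02 in the others, the suprabasal list lies at -2.25, -2.97 and -2.29 on the left, and the G2 and mitosis list changes side between the left and the middle panel.

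Of 13 basal keratinocyte genes 0 passed 2-fold in the same direction in all 3 libraries, with medians of 0.74, 0.30 and 1.27 against 0.18, 0.19 and 0.15 for all genes. The libraries differed in direction. The summed level of the list was higher in members than in comparison cells in anagen (18032 against 13768 CPM) and telogen (34385 against 24391 CPM), and lower in catagen (9731 against 15378 CPM). Members also differed among themselves. *KRT14* (ENSBGRG00000012060), the keratin of basal and outer sheath cells, had a median of 11457 CPM per anagen member (lowest 0, highest 59638), 646 CPM per catagen member (0 to 34450) and 21914.5 CPM per telogen member (83.9 to 95008). In anagen and catagen its values fell into a low and a high mode, with few cells between them. Most telogen members were high, with a lower quartile of 13551 CPM.

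A limit of 4000 CPM, set after these values had been seen, divided the members into KRT14-low and KRT14-high cells. It is a cut through a range, and 20 anagen, 8 catagen and 7 telogen members lay within 2-fold of it. KRT14-low cells were 82 of 228 members in anagen (36.0%, interval 29.7 to 42.6%), 42 of 64 in catagen (65.6%, 52.7 to 77.1%) and 18 of 202 in telogen (8.91%, 5.37 to 13.7%). The intervals did not overlap between libraries. Weighted comparison cells were KRT14-low in 46.3%, 44.7% and 25.5% of cases, and mitotic cells in 44.0%, 66.2% and 12.5%. In cells thinned to 3000 UMIs the KRT14-low share of members was 43.1% in anagen and 21.4% in telogen. In catagen it stayed within the interval given above. Thinning changes the depth, the 3 limits and the cells kept together.

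**Figure D4:**
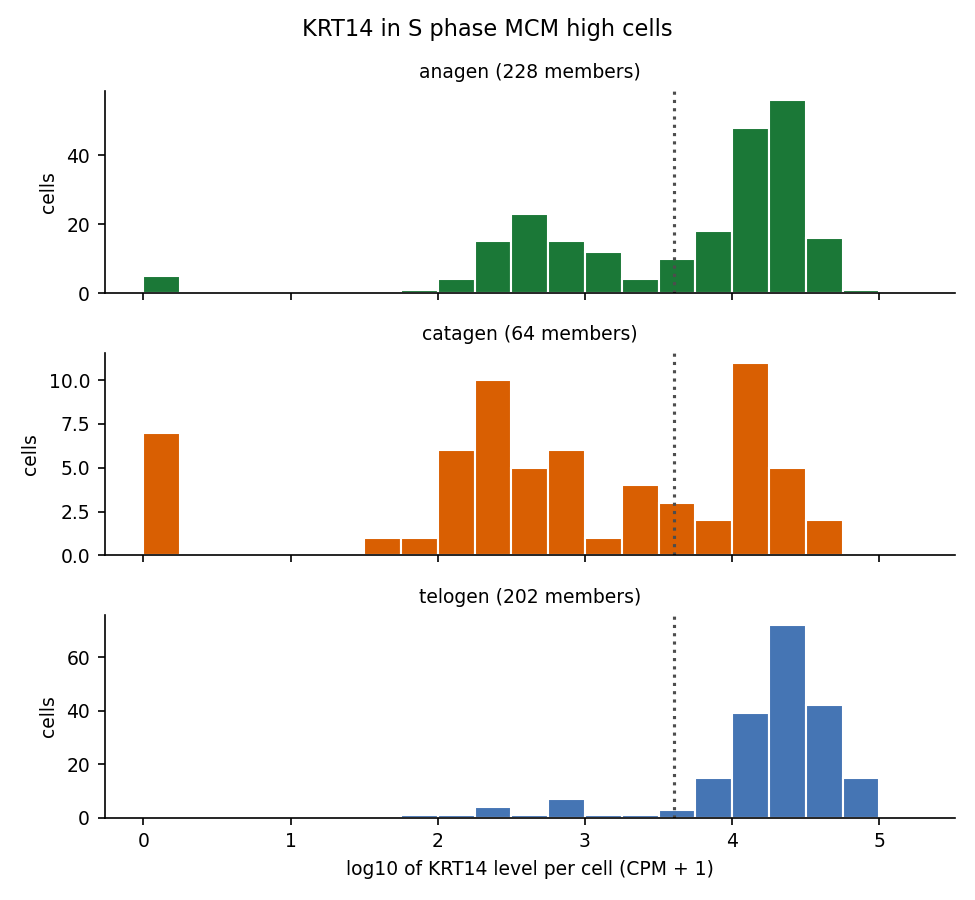
Number of members (vertical axis) by their level of *KRT14* (log10 of CPM + 1, horizontal axis), in a panel per library, with the limit of 4000 CPM dotted. Low and high modes are visible in anagen (82 low of 228) and catagen (42 low of 64), and in telogen 18 of 202 members are low.

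KRT14-low members carried 1.41, 1.26 and 1.11 UMIs of the DCN group genes per cell, against 0.322, 0.273 and 0.179 in KRT14-high members. The gate capped these genes, so these values are a description only. DCN group cells were KRT14-low in 83.7%, 92.5% and 81.0% of cases. Without the DCN group limit the KRT14-low share of members was 57.0%, 80% and 17.2%, in the same order of stages.

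Both kinds of member carried the replication genes, but the gate chose both by UMIs of such genes, so this is no independent result. Between KRT14-low and KRT14-high members 1385 genes were tested (at least 50 CPM in either). Of these, 34 (2.45%) were higher and 59 (4.26%) lower in KRT14-low cells in all 3 libraries. None of the tested genes of the 5 replication lists, 4, 8, 9, 10 and 7 of them, was among those. With so few list genes tested and shares this low, a count of none cannot show that the levels were alike. The median cell had 1429 CPM of the polymerase list in anagen KRT14-low members and 1346 CPM in KRT14-high ones, 1574 and 1420 CPM in catagen, and 1721 and 1274 CPM in telogen. The nucleotide supply list differed more, at 1108 against 845 CPM in anagen, 1273 against 634 CPM in catagen and 1230 against 795 CPM in telogen. The medians of the 5 lists were higher in KRT14-low cells in every library, other than that of the repair list in catagen, at 1798 against 1805 CPM.

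Among the 15 genes with the largest ratios, KRT14-low members were higher in *DLX3*, a homeobox gene of the hair matrix, at 199, 244 and 164 CPM against 36.4, 30.4 and 14.1 CPM. They were also higher in *ID2*, the zinc transporter *SLC39A10*, the non-muscle myosin *MYH10*, the actin-binding *TAGLN* (1077, 1459 and 1094 CPM against 89.3, 109 and 231 CPM), *CKB*, *UCHL1*, *APOE*, *DZIP1*, *ARHGAP29* and *HDGFL3*. Some inner sheath and hair keratins were in this group. *KRT85* of the hair cortex was at 905, 118 and 503 CPM against 79.4, 24.3 and 13.3 CPM, and *KRT28* of the inner root sheath at 136, 132 and 470 CPM against 11.9, 0 and 4.44 CPM. *KRT28* was detected in 21 of 82, 6 of 42 and 7 of 18 KRT14-low members, and *KRT85* in 55, 9 and 5 of them. The hair cortex and cuticle list went the way of *KRT85* in the median cell of catagen, but not of anagen or telogen. It was at 147, 52.2 and 41.3 CPM in KRT14-low and at 227, 0 and 47.7 CPM in KRT14-high members. *SELENBP1*, the other tested gene of this list, had log2 ratios of -0.29, 1.34 and -1.76. The cortex keratin *KRT35*, below the minimum of 50 CPM, was at 3.45, 2.32 and 4.84, against 1 UMI in KRT14-high members of each library. In the median cell the hair matrix list was at 492, 525 and 578 CPM in KRT14-low and at 129, 125 and 88.3 CPM in KRT14-high members.

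KRT14-high members carried genes of basal keratinocytes. The interleukin-1 decoy receptor *IL1R2* was at 593, 443 and 262 CPM against 15.9, 11.5 and 5.47 CPM in KRT14-low members. *KRT15*, a keratin of basal and bulge cells, was at 655, 875 and 510 CPM against 58.7, 88.9 and 82.0 CPM, the hemidesmosomal collagen *COL17A1* at 524, 492 and 380 CPM against 63.6, 91.7 and 49.2 CPM, and the water channel *AQP3* at 2341, 686 and 1443 CPM against 294, 68.8 and 109 CPM. *POSTN*, *ECM1*, *S100A4*, *CD74*, *CLCA2*, *GPX1*, *NFIA*, *SCUBE2*, *KLF2*, *FOSB* and the chemokine *CCL20* were on the same side. The basal list without *KRT14* was at 5606, 6226 and 6704 CPM in the median KRT14-high cell and at 568, 1286 and 537 CPM in the median KRT14-low cell.

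**Figure D5:**
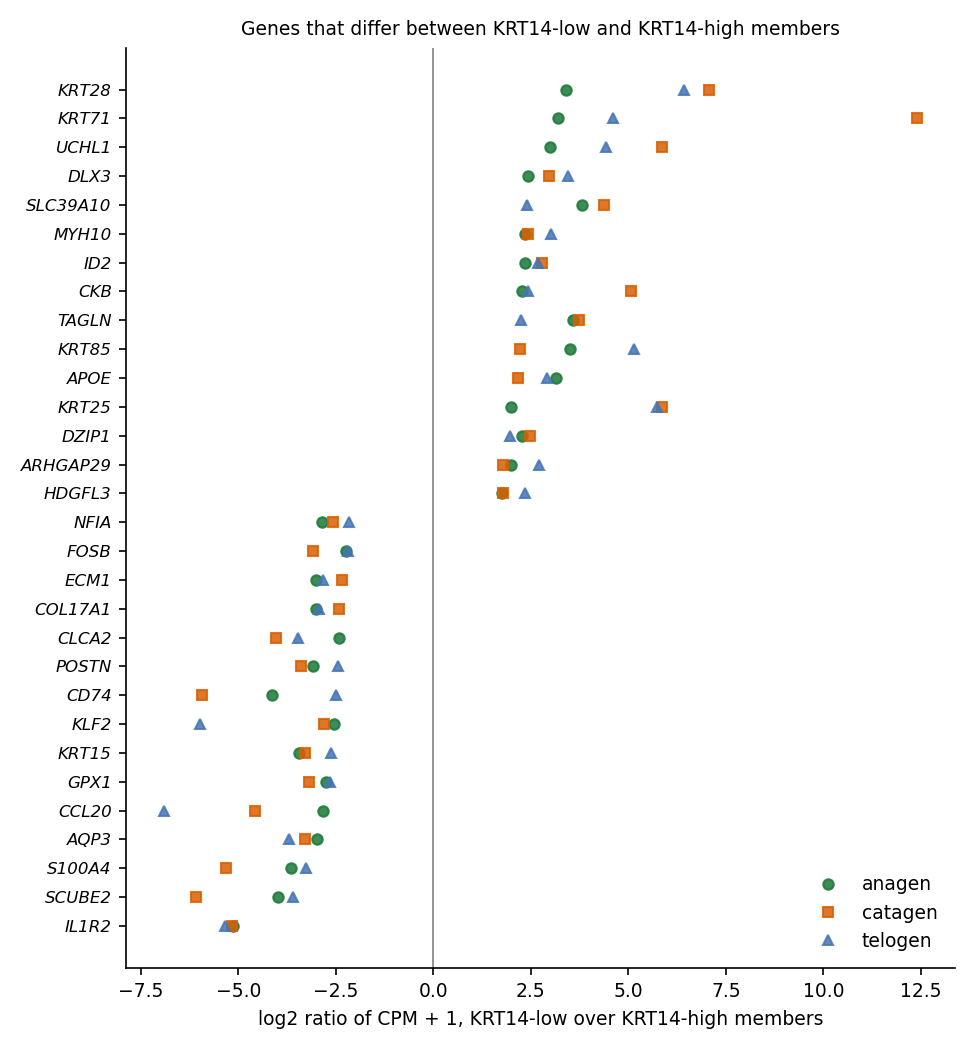
Log2 ratio of CPM + 1 in KRT14-low over KRT14-high members (horizontal axis) for the 15 genes with the largest and the 15 with the smallest ratios, with a symbol for each library. All 3 libraries lie on the same side for each gene. The catagen value of *KRT71*, 12.40, comes mostly from 1 member and is set against 0 UMIs in KRT14-high members. That of *KRT25*, 5.85, also comes mostly from this member, which held 1030 of the 1123 catagen UMIs in KRT14-low members.

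Against the DCN group cells (1075 in anagen, 464 in catagen and 263 in telogen, not weighted for depth), 125 of 4468 genes (2.8%) were higher in members and 94 (2.1%) were lower. The DCN group had no upper limit of replication gate UMIs, so part of it met the limit of 6 UMIs that defines members. In anagen 167 such cells were under the mitotic limit and 167 over it. These numbers were 76 and 56 in catagen and 25 and 39 in telogen. Of 82 tested replication genes 0 were lower and 7 higher, namely *CDT1*, *ORC1*, *GINS2*, *POLE2*, *HELLS*, *CDCA7* and *DTL*. The filter partly sets this count, since some of these genes passed it through one group only. They were 2 of 14 helicase, 3 of 19 polymerase, 0 of 14 nucleotide supply, 3 of 18 chromatin and 5 of 17 repair genes. The medians of the 5 lists lay between -0.11 and 0.89, against -0.13, -0.17 and -0.07 for all genes. Of 13 basal genes 10 were higher (4 of the 13 passed the filter through one group only), with medians of 2.02, 1.43 and 2.30. Of 11 bulge and outer sheath genes 5 were higher (2 of the 11 passed through one group only), *SPARC*, *SOX9*, *SFRP1*, *SEMA3E* and *KRT17*, and 1 was lower, the Wnt inhibitor *WIF1*, at 2.15, 9.74 and 2.43 CPM against 12.6, 25.3 and 11.1 CPM. *LAMA3*, a laminin chain of the basement membrane, was at 67.4, 93.5 and 145 CPM against 8.52, 12.1 and 20.0 CPM. Hair matrix regulators were lower in 6 of 13 cases (*LEF1*, *MSX1*, *MSX2*, *HOXC13*, *SHH* and *WNT10A*). *LEF1*, the nuclear partner of beta-catenin, was at 10.3, 23.4 and 1.04 CPM in members against 132, 143 and 88.4 CPM, and *KRT85* at 369, 87.6 and 44.4 CPM against 3595, 1457 and 3318 CPM. G2 and mitosis genes were lower in 16 of 27 cases, but the gate capped 3 mitotic genes in members and not in DCN group cells, so this count is no independent result.

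In catagen 1 member stood apart from all others. It held 50741 UMIs and 2896 genes, met the gate through 9 UMIs of *MCM5* alone, and had 0 UMIs of *RRM2*, *HELLS*, *CLSPN*, *PCNA* and *SMC2*. It carried 8934 UMIs of inner root sheath genes, 97.4% of those in catagen members. With it, *KRT27* in catagen members was at 11864 CPM against 711 CPM in comparison cells. Without it, *KRT27* was at 28.1 CPM, and its log2 ratio to the comparison cells turned from 4.06 to -4.61. *KRT71* and *KRT25* turned in the same way, and the 184 UMIs of *KRT26*, the 160 of *ELOVL3* and the 42 of *LRRC15* in catagen members were all from this cell. In anagen and telogen members *KRT27* was at 34.3 and 5.90 CPM against 1359 and 489 CPM.

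Markers of cells outside the epithelium came mostly from 1 gene of a list or from few UMIs. Over the 9 endothelial genes with a row there were 5 UMIs in anagen members (2.15 CPM, with *PECAM1* and *KDR* at 2 UMIs each), 0 in catagen and 6 in telogen (2.08 CPM, with *KDR* the most abundant), and 6, 9 and 7 of the genes were at 0. Of the 8 immune genes with a row, *CD74* supplied 193 of 214, 70 of 74 and 267 of 319 UMIs, and 5, 5 and 3 of the genes were at 0. Of the 14 mesenchymal and contractile genes, *TAGLN* supplied 1015 of 1091, 527 of 553 and 824 of 845 UMIs, and 6, 10 and 9 genes were at 0. The mesenchymal sum was 468, 1077 and 293 CPM in members against 191, 396 and 253 CPM in comparison cells, and the immune sum 91.9, 144 and 111 CPM against 53.1, 133 and 82.4 CPM, so the mesenchymal sum was higher in members of each library and the immune sum in anagen and telogen. In catagen the interval of the immune sum, 113 to 181 CPM, held the comparison value. Members among the 10% of cells with the highest mesenchymal share were 15.4%, 31.2% and 14.4%, against 8.42%, 10.4% and 9.36% of comparison cells, and for the immune share 14.9%, 10.9% and 11.9% against 7.49%, 7.59% and 5.90%. The part of such cells in the results was not tested. The 6 melanocyte genes summed to 31, 29 and 18 UMIs, and 21 of the 29 in catagen lay in 1 cell. For none of these lists did more than 1 gene reach the filter.

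Within members, levels were also compared between the stages. Genes at 50 CPM or more in either stage entered. From anagen to catagen, 131 of 1920 genes (6.82%) were 2-fold or more higher and 116 (6.04%) lower. From anagen to telogen 64 of 1743 (3.67%) were higher and 162 (9.29%) lower, and from catagen to telogen 152 of 1906 (7.97%) higher and 317 (16.6%) lower. Over the 5 replication lists, 3 of 51 genes were higher and none lower from anagen to catagen, 1 of 43 was lower and none higher from anagen to telogen, and 12 of 49 (24.5%) were lower and none higher from catagen to telogen. In the last contrast the share of lower replication genes lay above that of all genes, and in comparison cells 2 of these 49 genes were higher and 6 lower. The chromatin list had medians of 0.39 (catagen over anagen), -0.28 (telogen over anagen) and -0.77 (telogen over catagen), against medians of all genes of 0.09, -0.13 and -0.27, and 0 of 12, 0 of 9 and 3 of 12 of its genes passed 2-fold. For all 5 replication lists the medians of telogen over catagen lay between -0.82 and -0.29, and in comparison cells between -0.54 and 0.18. Early response and stress genes were lower in telogen than in anagen members in 8 of 14 cases (median -1.12), and in comparison cells in 7 of 14 (median -0.96). Suprabasal genes were lower in catagen than in anagen members in 5 of 8 cases and in comparison cells in 1 of 8.

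In anagen, *CLDN4*, a tight junction claudin, was at 997 CPM in members, against 46.7 CPM in catagen and 63.1 CPM in telogen members. In comparison cells it was at 2522, 841 and 400 CPM, highest in anagen as well, but with catagen and telogen in the opposite order. The collagenase *MMP1* was at 62.2, 1.95 and 4.16 CPM, from 145, 1 and 12 UMIs, and *ITPKC* at 288, 31.2 and 27.4 CPM. Lowest in anagen were the RNA-binding *HNRNPA0* at 24.0 CPM against 85.7 and 87.4 CPM, *CCDC88A*, *LGALS3* and the peroxiredoxin *PRDX1*. *CYP4X1* had 292 anagen UMIs, 99.7% of them in 1 member.

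In catagen, *PTCH1*, the Hedgehog receptor and target, was at 60.4 CPM (31 UMIs in 21 members) against 10.3 CPM in anagen and 4.16 CPM in telogen members. *IGF2BP2*, an RNA-binding protein, was at 70.1, 12.9 and 0.694 CPM in catagen, anagen and telogen, and transferrin *TF* was also highest there. *S100A7*, an antimicrobial alarmin, was at 29.2 CPM in catagen members against 735 in anagen and 842 CPM in telogen, and in comparison cells at 303 against 6890 and 4334 CPM. *AVPI1* and *IGFBP6* were lowest in catagen as well.

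In telogen, *S100A4*, a calcium-binding protein, was at 846 CPM in members (2440 UMIs in 159 cells) against 100 CPM in anagen and 129 CPM in catagen members. *IGFBP6*, which binds IGF2, was at 310, 78.1 and 13.6 CPM in telogen, anagen and catagen, and the neuropeptide gene *NMB* at 224, 41.2 and 21.4 CPM. *MYH10* was lowest in telogen, at 9.02 CPM against 62.7 in anagen and 171 CPM in catagen, followed by *NR4A2* and *TIMP3*. Of the genes named for a stage, *MYH10*, *S100A4* and *CLDN4* also passed 2-fold in all 3 libraries between KRT14-low and KRT14-high members, whose shares differ between the stages. *PTCH1*, *AVPI1*, *NMB*, *NR4A2* and *TIMP3*, which did not reach the minimum of 50 CPM there in all libraries, also differed by over 2-fold in each, *PTCH1* at 25.7, 86.0 and 49.2 CPM in KRT14-low and at 1.98, 6.07 and 1.11 CPM in KRT14-high members, the latter from 3, 1 and 3 UMIs. *MMP1* had 1, 0 and 0 UMIs in KRT14-low and 144, 1 and 12 in KRT14-high members. What part of the stage differences this makes up was not tested. Of the genes named here for a stage, comparison cell levels are given only for *CLDN4* and *S100A7*. For the others, whether the difference was also present outside the members is not shown.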

How the data were processed

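Per the labels, hair follicle cells of 3 libraries (anagen, catagen and telogen, 1 each) were run on the 10x Genomics platform. The authors deposited UMI counts per gene and cell, not normalized, for 26924 genes, 15765 of them with a symbol. The file headers name Cell Ranger 4.0.0 (anagen), 3.1.0 (catagen) and 6.0.2 (telogen), and the submitters' processing notes name 2.1.1. The genome build is not given in the sources used here.

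Counts were summed over cells and scaled to CPM in Python 3.11.15 with numpy 2.4.6 and scipy 1.17.1. Comparison cells were weighted to the members' depth over 10 bins. Genes with a symbol, outside the gate, at 10 CPM or more on either side in all 3 libraries were tested, and ratios had 1 CPM added. The calculation was tested on simulated data. With 1 library per stage no test between stages was possible, and contrasts within libraries were described without a test. Intervals (exact Poisson for levels, Clopper-Pearson for shares) cover counting error only, and 3 UMIs correspond to 1.29, 5.84 and 1.04 CPM in anagen, catagen and telogen members. Doublets were left in. Of the members, 4, 8 and 23 were among the highest 5% of Scrublet scores (scanpy 1.11.5) of their library.

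Any replication gene could be named. Of other genes at 50 CPM or more in members of each library, the 15 with the highest smallest ratio and the 10 with the lowest largest ratio were named, with the 3 highest and 3 lowest per stage and the 3 most abundant genes of each lineage list. Where 1 cell held over 50% of a stage gene's UMIs, the next genes were added. Some genes that met these rules are not reported here. Other names come from the lists or were chosen after their values were seen. The members and lists were chosen with earlier results of these data known.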

Additional observations from a re-analysis of the deposited data

Results flagged for a closer look

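Several genes stood on opposite sides of the comparison cells in different libraries by 2-fold or more. With 1 library per stage these differences were not tested. The inner root sheath keratins were below comparison cells in anagen and telogen members and above them in catagen members. The log2 ratio of *KRT27* was -5.27 in anagen, 4.06 in catagen and -6.15 in telogen. For *KRT71* it was -3.13, 2.19 and -4.21, and for *KRT25* -3.36, 1.23 and -3.79. *KRT26* had 0 UMIs in anagen and telogen members, against 1.90 and 1.08 CPM in comparison cells, so its ratios there (-1.53 and -1.06) were set by the 1 CPM added. Its catagen ratio was 5.87, from 184 UMIs in 1 member. *ELOVL3*, a fatty acid elongase, was at -4.56, 3.67 and -5.93. In catagen 1 member of 50741 UMIs held most of these UMIs, and without it *KRT27* was at -4.61.

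*CYP4X1*, a cytochrome P450 gene, was at 2.48 in anagen, where 99.7% of its UMIs lay in 1 member. Its ratios of -1.94 in catagen and -1.66 in telogen come from 0 UMIs in members and were set by the 1 CPM added. *ACTA2*, smooth muscle actin, was at 1.91 in anagen (41 UMIs in 14 members) and 4.06 in catagen (23 UMIs in 6 members). Its telogen ratio of -1.26 likewise comes from 0 UMIs, against 1.40 CPM in comparison cells. *DLX3*, a hair matrix homeobox gene, was at 1.44 in catagen and -1.25 in telogen, and its level also differed between KRT14-low and KRT14-high members, at 199 against 36.4 CPM in anagen.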

How the results depend on the processing

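Of 122 counts and shares under alternative settings, 86 kept within their limit and 36 moved. Of 1116 log2 ratios of named genes, 791 moved by less than their counting interval, 313 moved without turning and 12 reversed. The share of members in anagen, catagen and telogen was 2.51%, 1.18% and 2.24% of cells with 1000 or more genes, 3.25%, 1.003% and 2.28% with a limit of 4 gate UMIs, 0.893%, 0.191% and 0.483% with 10, and 1.43%, 0.398% and 1.02% with under 2 mitotic UMIs. In cells thinned to 3000 UMIs it was 2.79% and 1.08% in anagen and catagen. The KRT14-low share was 57.0%, 80% and 17.2% without the DCN group limit, 42.6% in anagen without the mitotic limit, and 43.1% (anagen) and 21.4% (telogen) in thinned cells. With 10 CPM added, 122 genes were higher and 39 lower than in comparison cells, and with a minimum of 50 CPM 69 and 29. Without depth weighting 42 were lower. The minimum of 50 CPM left 29 higher replication genes and 2 higher G2 and mitosis genes, since it tests fewer genes. Against mitotic cells the number of higher genes was 4 with 10 CPM added, 4 with a minimum of 50 CPM, 28 with 10 gate UMIs and 11 with under 2 mitotic UMIs, and 41 were lower with a minimum of 50 CPM. Against DCN group cells 50 were higher and 53 lower with 10 CPM added, and 41 and 30 with a minimum of 50 CPM. The cause of these moves was otherwise not tested.

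The reversed ratios were those of catagen *KRT27*, *KRT71* and *KRT25*. They were -4.96, -3.35 and -2.37 with 10 gate UMIs, -3.19, -2.53 and -0.99 in thinned cells, and -4.62, -2.48 and -2.09 both without the deepest member of each library and with members that held UMIs of 2 or more gate genes. The last 2 settings and all those for the KRT14-low share were chosen after seeing the data. No paired analysis was possible because each stage has 1 library, so that the stages share a single replicate number, and no result comes from a test. The contrasts between kinds of cell were each made within a library. The catagen values rest on 64 members, so a gene needs 5.84 CPM there to reach 3 UMIs.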
